A study of Mus musculus with 6 samples.

Results

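The 10 genes described here, Dcn, Lum, Ogn, Slc47a1, Slc22a6, Slc6a13, Dpt, Comp, Scara5 and Islr, are known as genes of leptomeningeal fibroblasts and were taken by symbol from a table of read counts for 54532 genes. All 10 were in the table and all 10 passed the filter on low counts. They were selected on their CPM in the trained and untrained libraries, so those levels are a description and carry no test. All 6 libraries came from injured spinal cord (SCI) of the strain C57BL/6J. In 3 of them (SCIT) the mice had been trained on the rotarod, a turning rod that exercises balance and gait, and in 3 (SCI) they had not. All 6 are labelled as day 28 after training. The sources used here give neither age nor sex, nor the level of the injury or the segment taken. They do not say whether each library is 1 mouse, so p-values measure only the spread between these libraries, which may be technical.

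The leptomeninges are the arachnoid and the pia, the thin membranes that enclose the cord and hold the cerebrospinal fluid. Their fibroblasts lay down collagen and the small proteoglycans that coat it, and they carry transporters that move solutes between the fluid and the blood. Fibroblasts of related kinds sit around vessels and in the sheaths of the nerve roots, and after an injury that opens the membranes fibroblasts also build the fibrotic part of the scar. None of the 10 genes is exclusive to the leptomeninges, and a whole-cord library does not tell which of these cells a read came from. In such a library fewer cells of a type and less RNA per cell cannot be told apart.

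Total counts were 15814104 to 26092014 in the trained libraries and 15947347 to 18081949 in the untrained ones, so that 3 counts, the floor for detection, were 0.116 to 0.192 CPM (read counts divided by the TMM-scaled library size in megareads). Trained replicate 1 stood apart from the other 5 libraries. It was the deepest library and had the lowest CPM of all 6 in 10 of the 10 genes, against 18.7% of the 16909 genes tested. Nerve root genes were also low in it. Prx (periaxin of myelinating Schwann cells) had 0.581, 99.7 and 48.2 CPM in the trained libraries (replicates 1, 2 and 3, an order kept throughout), against 81.4, 80.1 and 46.0 CPM in the untrained ones. Neuron genes were not. The 5 neuron markers summed to 4480 CPM in trained replicate 1, 4499 and 3747 CPM in the other 2 trained libraries and 4056 to 4567 CPM in the untrained ones. The fold changes below are therefore given with and without trained replicate 1, and the CPM of each of the 10 genes by library.

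Dcn (decorin, which binds collagen fibrils and TGF-beta), Lum and Ogn are small leucine-rich proteoglycans. Dcn had 10.7, 80.2 and 79.7 CPM in the trained libraries, against 96.2, 62.5 and 58.7 CPM in the untrained ones. Trained replicates 2 and 3 lay inside the range of the untrained libraries and trained replicate 1 far below it. Lum (lumican, which sets the spacing of collagen fibrils) had the same split, with 2.09, 8.28 and 8.56 CPM in the trained libraries against 12.9, 8.23 and 7.73 CPM in the untrained ones. Ogn (osteoglycin or mimecan) had the widest range as a ratio of its highest to its lowest library, with 1.47, 63.4 and 29.1 CPM in the trained libraries against 43.1, 37.7 and 29.5 CPM in the untrained ones. Here the other trained libraries split, replicate 2 above every untrained library and replicate 3 at the level of the lowest of them. The exact 95% Poisson intervals were 26.5 to 31.9 CPM in trained replicate 3 and 26.9 to 32.3 CPM in untrained replicate 3. Its 38 counts in trained replicate 1 have an exact 95% Poisson interval of 1.04 to 2.02 CPM, which covers counting error only and is far from the value of any other library. Trained replicate 1 had 4.0% of the untrained mean of Ogn, 14.8% of that of Dcn and 21.7% of that of Lum.

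The group holds 3 carriers of the membranes. Slc6a13 (GAT2, a carrier of GABA and taurine) was at 2.32, 9.88 and 17.3 CPM in the trained libraries, against 14.7, 6.91 and 7.48 CPM in the untrained ones. Slc47a1 (MATE1, which exports organic cations in exchange for protons) was at 0.581, 10.01 and 11.5 CPM in the trained libraries, against 5.63, 2.88 and 3.58 CPM in the untrained ones. Slc22a6 (OAT1, which takes up organic anions) was at 0.271, 2.35 and 3.04 CPM in the trained libraries, against 2.51, 2.10 and 0.958 CPM in the untrained ones. Trained replicate 1 had 23.9% of the untrained mean of Slc6a13, 14.4% of that of Slc47a1 and 14.6% of that of Slc22a6. They parted in the other trained libraries, where both replicates of Slc47a1 lay above every untrained one while those of Slc6a13 and Slc22a6 overlapped them. Slc22a6 rested on 7 counts in trained replicate 1, with an exact Poisson interval of 0.109 to 0.558 CPM.

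Dpt (dermatopontin, a small matrix protein that binds decorin) was less low in trained replicate 1. It was at 2.21, 4.39 and 5.34 CPM in the trained libraries, against 6.39, 4.15 and 3.39 CPM in the untrained ones, and trained replicate 1 had 47.6% of the untrained mean. Comp (cartilage oligomeric matrix protein, a thrombospondin that links collagen fibrils in cartilage and tendon) had another pattern. It was at 1.123, 7.78 and 11.4 CPM in the trained libraries, against 1.58, 1.56 and 1.60 CPM in the untrained ones. The untrained libraries held 29, 26 and 25 counts, with exact Poisson intervals of 1.06 to 2.27, 1.02 to 2.29 and 1.03 to 2.36 CPM. Their SD, 1.13% of their mean, was far narrower than this counting error and does not measure how alike they are. Trained replicates 2 and 3 were several times higher. Trained replicate 1 was just under the untrained level, with an interval of 0.752 to 1.61 CPM that contains it.

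Scara5 (a class A scavenger receptor that takes up ferritin) came closest to Comp in this respect, with 2.67, 11.6 and 7.76 CPM in the trained libraries against 3.99, 4.03 and 3.39 CPM in the untrained ones. Its untrained values, on 73, 67 and 53 counts, had an SD of 9.43% of their mean. Their exact Poisson intervals were wider, at 3.13 to 5.01, 3.12 to 5.11 and 2.54 to 4.43 CPM. Both trained replicates 2 and 3 lay above all 3 untrained values. Trained replicate 1 had 70.3% of the untrained mean of Scara5 and 71.0% of that of Comp, the highest shares among the 10 genes. Islr (an immunoglobulin and leucine-rich repeat protein of mesenchymal cells, also called meflin) was at 5.81, 24.5 and 36.4 CPM in the trained libraries, against 26.3, 16.6 and 16.4 CPM in the untrained ones. Trained replicate 2 lay inside the untrained range of Islr and trained replicate 3 above it.

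**Figure D1:**
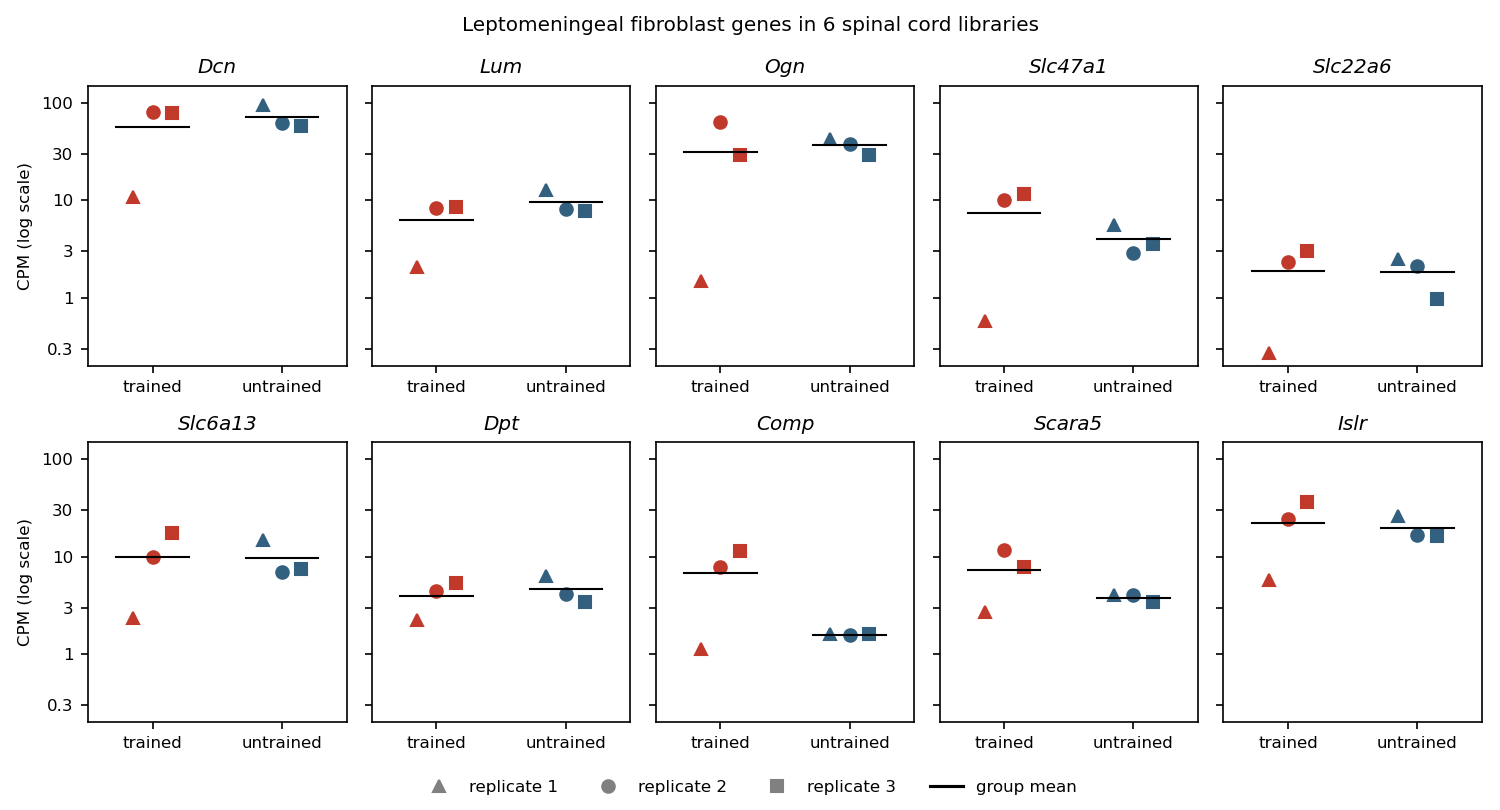
CPM of each of the 10 genes (log axis, shared by all panels) in 3 trained libraries (left, red) and 3 untrained libraries (right, blue); the symbol gives the replicate and the line the group mean. Trained replicate 1 (red triangle) is the lowest point in all 10 panels, and in Slc47a1, Comp and Scara5 the other trained libraries lie above all 3 untrained ones.

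Promoter sequences from RefSeq (GRCm38.p6) were found for 5 of the 10 genes, in 7 windows. Among these genes Ogn had the lowest share of its untrained mean in trained replicate 1 and Dpt the highest. The 250 bases before the start are shown for both, and for a start of each of the carriers Slc22a6 and Slc6a13. This sets the sequences of genes low in the same library beside one another. They are chr13:49607765-49608014, chr1:164796413-164796662, chr19:8617746-8617995 and chr6:121300038-121300287, all of the plus strand. Capitals mark matches on either strand to the TATA box (TATAAA), the CCAAT box (CCAAT), the GC box (GGGCGG), the AP-1 site (TGANTCA), a forkhead core (TAAACA) and the TEAD site (GGAATG).
Ogn: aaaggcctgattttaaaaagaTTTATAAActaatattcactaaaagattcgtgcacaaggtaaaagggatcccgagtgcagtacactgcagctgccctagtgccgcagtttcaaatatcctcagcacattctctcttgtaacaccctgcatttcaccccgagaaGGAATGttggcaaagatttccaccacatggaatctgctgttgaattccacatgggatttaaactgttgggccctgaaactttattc
Dpt: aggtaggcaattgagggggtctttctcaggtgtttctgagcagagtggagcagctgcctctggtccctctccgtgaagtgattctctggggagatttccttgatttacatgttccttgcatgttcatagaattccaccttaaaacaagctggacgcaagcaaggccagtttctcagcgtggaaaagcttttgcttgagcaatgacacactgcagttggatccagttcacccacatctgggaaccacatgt
Slc22a6: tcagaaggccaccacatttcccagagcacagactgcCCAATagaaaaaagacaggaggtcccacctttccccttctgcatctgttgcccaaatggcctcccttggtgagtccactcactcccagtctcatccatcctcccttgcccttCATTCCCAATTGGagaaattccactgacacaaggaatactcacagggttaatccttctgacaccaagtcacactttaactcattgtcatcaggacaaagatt
Slc6a13: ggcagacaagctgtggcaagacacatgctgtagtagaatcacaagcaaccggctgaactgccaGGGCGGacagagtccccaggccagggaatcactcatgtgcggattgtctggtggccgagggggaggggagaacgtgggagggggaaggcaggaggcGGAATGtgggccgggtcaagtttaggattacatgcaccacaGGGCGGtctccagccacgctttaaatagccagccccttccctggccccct

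In these letters Ogn holds TATAAA on both strands, in 2 matches that overlap, and 1 GGAATG. Slc22a6 holds 3 CCAAT matches and 1 GGAATG, joined in 1 run of capitals where matches overlap, and Slc6a13 holds 2 GC boxes and 1 GGAATG. Dpt holds none of the 6. Over the 7 windows of the 5 genes, 3 held GGAATG, against 12.6% of 32851 windows of the same length in the table. TATAAA stood in 1 of 7 (12.4% of all windows), CCAAT in 2 (33.8%) and the GC box in 1 (32.7%), while the AP-1 site (6.75%) and the forkhead core (12%) stood in 0. A match is a run of letters and not a measured binding site.

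Summed over the 10 genes the trained libraries held 29.3, 222 and 210.2 CPM, against 213, 147 and 133 CPM in the untrained ones. The mean sums, 154 ± 108 CPM for trained libraries and 164 ± 43.1 CPM for untrained ones (SD, n = 3 each), differed by less than either SD. Trained replicate 1 held 17.8% of the untrained mean of this sum. Among the untrained libraries replicate 1 had the highest value in 8 of the 10 genes, all but Comp and Scara5.

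Trained replicate 1 was not evenly low. On the log2 scale it lay 2.08 below the median of the other 5 libraries at the median of the 10 genes, with a range of 4.66 below for Ogn to 0.51 below for Comp, while over all genes tested the median difference was -0.0078. Ranked by this difference among the 16909 genes, Ogn was the 12th lowest, Slc47a1 the 34th, Slc22a6 the 38th and Dcn the 44th, and 8 of the 10 held ranks 12 to 576, the last being Dpt. Prx held rank 3. The 20 other leptomeningeal markers examined had a median of -1.26 and were lowest in trained replicate 1 in 18 of 20 cases, all but Slc13a3 and Lama1. The 18 general fibroblast genes had a median of -1.40 (15 of 18 lowest there) and 7 Schwann cell genes one of -2.38 (7 of 7). The 10 fibrotic scar genes had one of -0.97 (9 of 10) and 3 other class A scavenger receptors one of -1.17 (3 of 3). Other thrombospondins were at -0.47 (2 of 4), other leucine-rich proteoglycans at -0.31 (6 of 11) and related carriers at -0.09 (4 of 10). Medians were -0.33 for 11 pericyte and smooth muscle genes, -0.22 for 8 endothelial genes and between -0.37 and 0.17 for the 5 lists of neurons, oligodendrocytes, astrocytes, microglia and ependymal cells.

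**Figure D2:**
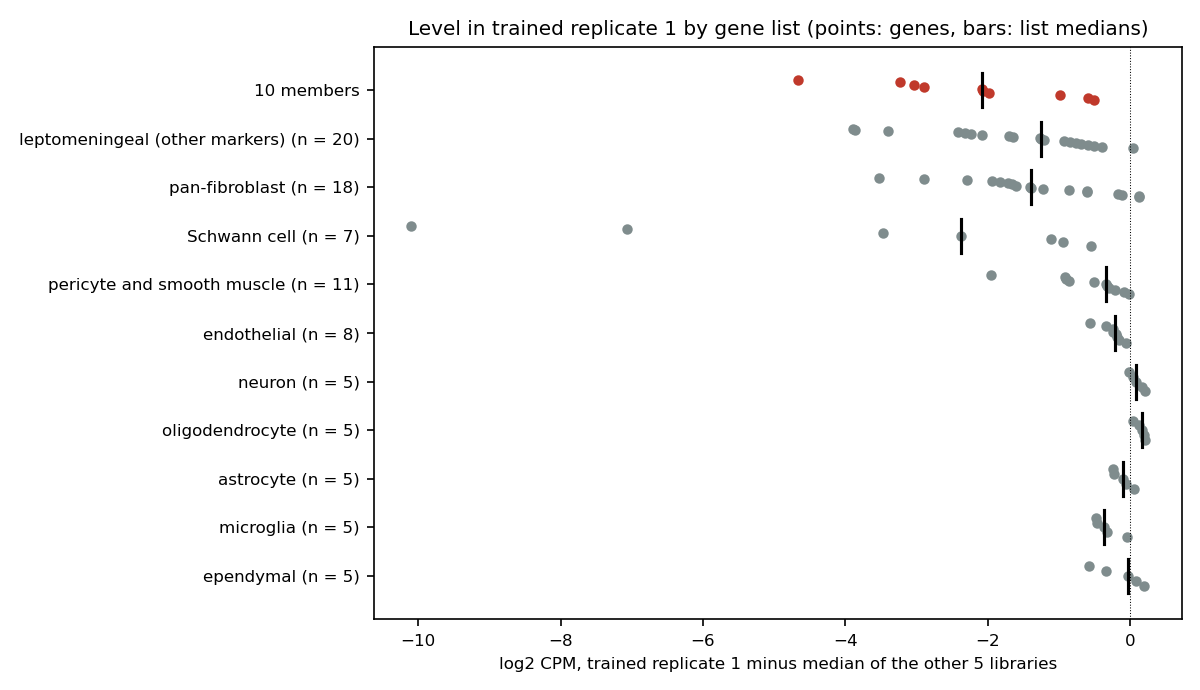
Difference in log2 CPM between trained replicate 1 and the median of the other 5 libraries for single genes (points) and list medians (bars). The 10 leptomeningeal fibroblast genes (red) run from -4.66 to -0.51 with a median of -2.08, the neuron and oligodendrocyte markers lie near 0, and the Schwann cell list has a median of -2.38.

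Nerve root markers moved with these genes in trained replicate 1, and their part in the trained and untrained values was not tested. The 6 sensory ganglion markers were at 2.53 to 12.6 CPM in sum in the trained and 2.57 to 30.1 CPM in the untrained libraries, and were lowest in trained replicate 2. Against the untrained mean, trained replicate 1 had 105% of Snap25 and 95.6% of Nefl (neurons), 117% of Mobp (oligodendrocytes), 97.3% of Gfap and 85.6% of Aqp4 (astrocytes), 77.7% of Csf1r and 75.6% of Cx3cr1 (microglia), and 96.6% of Foxj1 and 76.0% of Rarres2 (ependyma). It had 53.8% of Drp2, a gene of Schwann cells. The sensory neuron genes were uneven across all libraries: Avil was at 0.697, 0.309 and 5.34 CPM in the trained libraries against 0.765, 10.4 and 3.90 CPM in the untrained ones, and Scn10a was at 0 counts in trained replicate 1 and in untrained replicate 1. P2rx3, a receptor gene of the same list, had 86.5% of the untrained mean in trained replicate 1. The neuron and oligodendrocyte markers named were thus near the untrained mean, and the microglial ones were about as far below it as Rarres2. Of the 7 markers of choroid plexus, the other tissue bathed in cerebrospinal fluid, Otx2 was at 0 counts in every library and Ttr at 0.372 CPM at most. The leading genes Kl and Aqp1, which other cells share, had 88.6% and 20.5% of the untrained mean in trained replicate 1.

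With all 6 libraries the log2 fold changes of the 10 genes (trained over untrained) had a median of -0.031, beside -0.0080 for all genes tested, and 4 were positive and 6 negative. They ran from -0.64 ± 0.59 (SE) for Lum to 2.07 ± 0.91 for Comp, and trained and untrained libraries overlapped in 10 of 10 genes. The sign depended on the tool in 3 genes: with limma-voom Slc47a1 was at -0.33 and Islr at -0.37, against 0.83 and 0.14 with edgeR, and Slc6a13, at -0.015 with edgeR, was at 0.016 with DESeq2. With limma-voom 2 of the 10 were positive and 8 negative, and Ogn was lowest at -1.82, against -0.27 ± 1.17 with edgeR. Of all genes tested, 16.8% did not overlap (8.13% higher and 8.69% lower). Of all genes tested 10 had an adjusted p below 0.05 by the quasi-likelihood method of edgeR (0.0591%, with 0.00591% higher and 0.0532% lower), and 0 of the 10 leptomeningeal genes were among them. The same count was 0 with DESeq2 and with limma-voom. Since the trained and untrained levels served to choose the genes, nothing is read from these counts.

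Without trained replicate 1 the picture differed in size and in sign. The median of the 10 genes was then 0.50, beside -0.0028 for all genes, with 9 positive and 1 negative (Lum, -0.20 ± 0.22). The largest values were 2.60 ± 0.25 for Comp, 1.41 ± 0.25 for Slc47a1 and 1.35 ± 0.22 for Scara5. In these 3 genes trained replicates 2 and 3 averaged 6.07, 2.67 and 2.55 times the untrained mean, with no overlap, against 12.7% of 17227 genes in which both trained libraries lay above all 3 untrained ones. In that fit 21 genes, or 0.122%, passed edgeR's test, with these 3 among them. The same levels chose the 10 genes, so nothing is read from either count. Dcn at 0.14 ± 0.25, Dpt at 0.06 ± 0.28 and Ogn at 0.33 ± 0.43 stayed within about their own SE of 0, and Islr at 0.62 ± 0.28, Slc22a6 at 0.52 ± 0.37 and Slc6a13 at 0.48 ± 0.45 lay between.

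**Figure D3:**
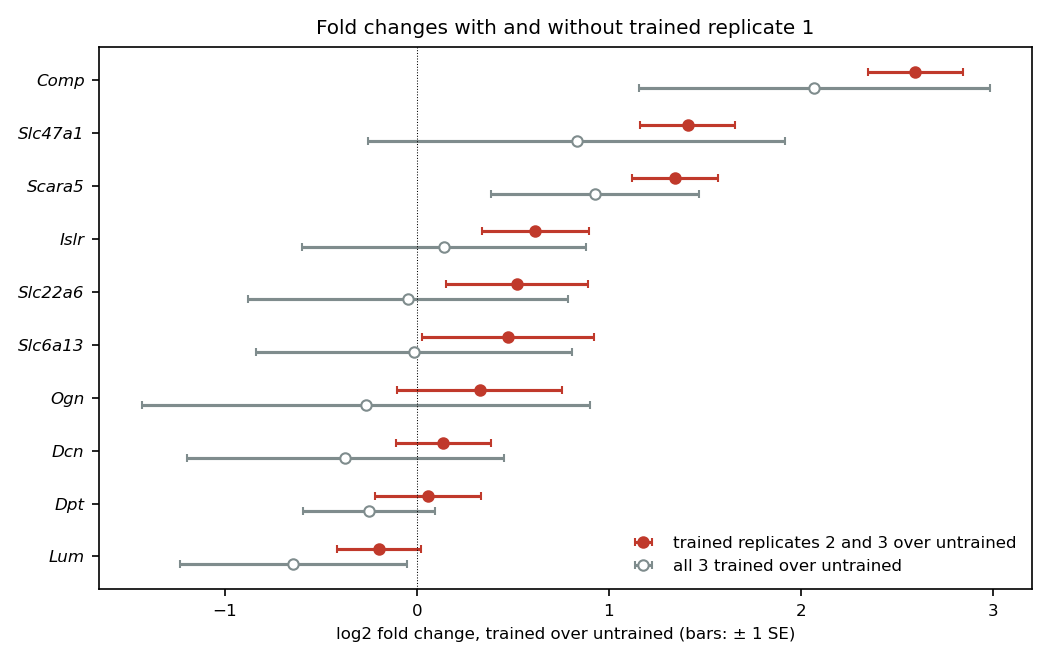
Log2 fold change of each gene, trained over untrained, in edgeR's fit without trained replicate 1 (filled red) and with all 6 libraries (open grey); bars are ± 1 SE. Without trained replicate 1 the values run from -0.20 (Lum) to 2.60 (Comp), and the SE of each gene is smaller than with all libraries.

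Blood cell genes were highest in the same 2 trained libraries as Comp, Slc47a1 and Scara5, and part of them were above the untrained libraries in trained replicate 1 too. The 6 blood markers summed to 75.4, 170 and 167 CPM in trained replicates 1, 2 and 3, against 75.1, 69.8 and 42.4 CPM in the untrained libraries. Each of the 6 was higher without overlap once trained replicate 1 was left out, against 12.7% of 17227 genes. With all 3 trained libraries 4 of the 6 were, namely Hba-a1, S100a8, S100a9 and Camp, against 8.13% of 16909 genes. Without trained replicate 1 S100a9 and Camp passed edgeR's test (adjusted p = 0.000162 and 0.0290), as did 0.122% of all genes. S100a8, a neutrophil gene, was at 8.05, 17.6 and 13.8 CPM in the trained libraries against 5.08, 6.61 and 2.94 CPM in the untrained ones. Markers of skeletal muscle summed to 8.87, 7.23 and 6.58 CPM in the trained libraries against 8.25, 3.91 and 2.49 CPM in the untrained ones. Those of cartilage, bone and tendon summed to 126, 105 and 136 CPM in the trained libraries against 110.2, 126 and 99.9 CPM in the untrained ones. Trained replicate 1 had 259% of the untrained mean of Acta1 and 117% of Mylpf (muscle), 118% of Col11a2 and 90.6% of Acan (cartilage), 122% of Hba-a1 and 102% of Hbb-bs (globins), and 165% of S100a8, 162% of S100a9 and 179% of Camp (neutrophils). Their part in the levels of Comp, Slc47a1 and Scara5 was not tested.

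Levels can also be set against the fibrillar collagen of the same library, as a relative scale. This scale was chosen after the values had been seen, and the collagen genes used, Col1a1, Col1a2 and Col3a1, are expressed by several kinds of fibroblast and mural cell. Their summed CPM was 89.3, 459.9 and 525 in the trained libraries, against 415, 227 and 226 in the untrained libraries. Dcn was at 12.02%, 17.4% and 15.2% of that sum in the trained libraries, against 23.2%, 27.5% and 26% in the untrained ones. Lum was at 2.34%, 1.80% and 1.63% of it in the trained libraries, against 3.11%, 3.63% and 3.43% in the untrained ones. In both genes every trained library, replicate 1 included, lay below every untrained one. Comp was the reverse, at 1.26%, 1.69% and 2.17% in the trained libraries against 0.382%, 0.688% and 0.708% in the untrained ones.

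On this scale the other 7 genes overlapped between the groups. Of all genes tested 0.414% did not overlap on it, 0.136% higher and 0.278% lower, and since this contrast chose the 10 genes nothing is read from their count of 3. The collagen sum was lowest in trained replicate 1 and highest in trained replicates 2 and 3, so a gene of even CPM overlaps on this scale by construction. That share is thus not comparable with the 16.8% on plain CPM. Islr followed the collagen sum most closely, with 6.51%, 5.32% and 6.94% in the trained libraries against 6.35%, 7.33% and 7.25% in the untrained ones. Scara5 was at 2.99%, 2.52% and 1.48% in the trained libraries, against 0.961%, 1.77% and 1.501% in the untrained ones. As a share of the summed CPM of the 10 genes, Dcn was lower without overlap (36.1% to 37.9% in trained against 42.6% to 45.1% in untrained libraries), beside 0.0532% of all genes on that scale. Comp and Scara5 were higher on it, beside 0.692% (0.745% in either direction). Set against the geometric mean of the 20 other leptomeningeal markers, Lum was lower without overlap, beside 0.361% of all genes, and Comp and Scara5 were higher, beside 0.633% (0.994% in either direction). Both denominators were again lowest in trained replicate 1, and a gene of even CPM overlaps on these scales too. The sum of the 10 genes contains the gene set against it, and nothing is read from these counts either. On plain CPM the groups overlapped in Dcn, Lum, Comp and Scara5.

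**Figure D4:**
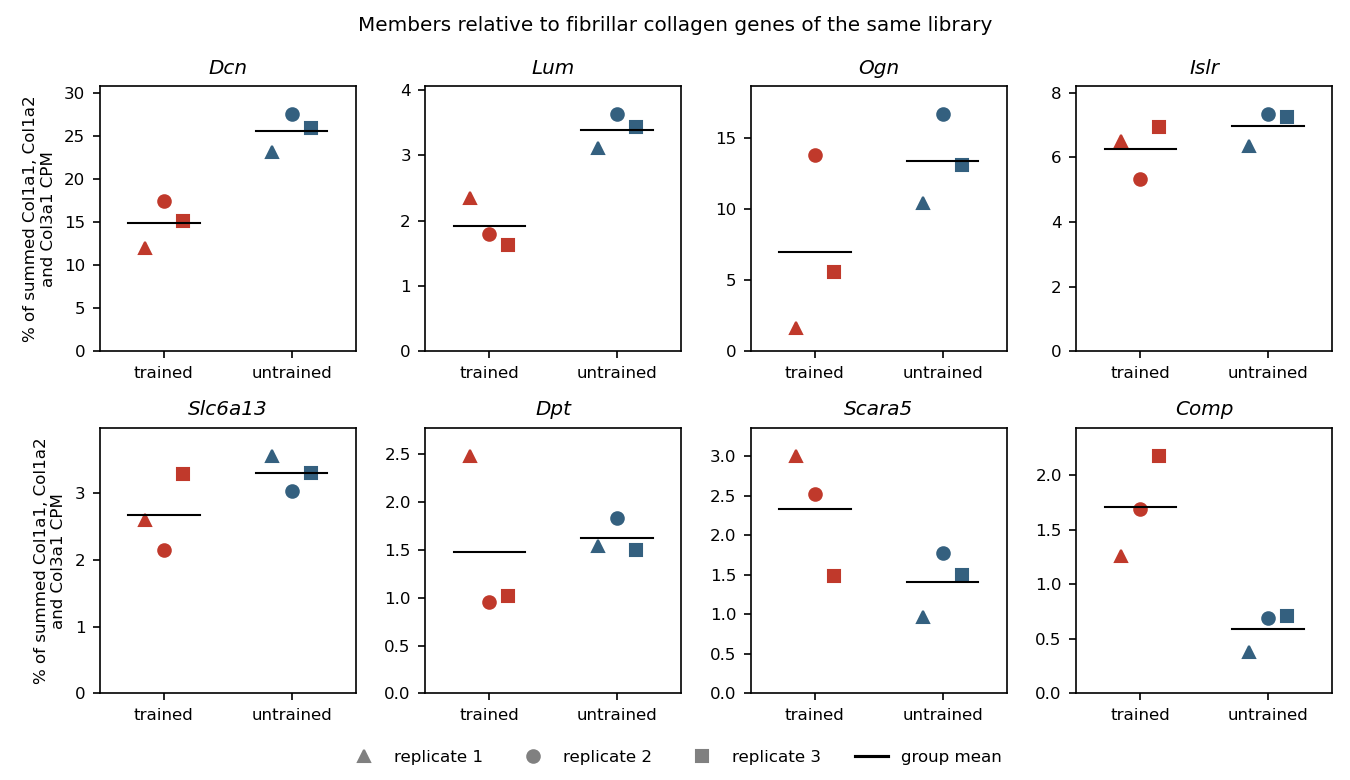
CPM of 8 of the 10 genes as a percentage of the summed CPM of Col1a1, Col1a2 and Col3a1 in the same library (linear axes from 0), in trained (left, red) and untrained libraries (right, blue); symbols give replicates and lines group means. Dcn and Lum lie lower and Comp higher in all 3 trained libraries, and the other 5 overlap.

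Over the 5 libraries other than trained replicate 1 the 10 genes differed in how closely they followed collagen. Islr varied 2.23-fold in CPM and 1.38-fold relative to the collagen sum, and Slc6a13 2.51-fold in CPM and 1.65-fold relative to it. Ogn varied 2.18-fold in CPM and 2.998-fold relative to collagen, so that its spread was wider on the collagen scale. Comp varied most on both scales, 7.31-fold in CPM and 5.69-fold over collagen.

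Levels between genes were compared as group means of CPM per kilobase of the gene length in the table. On that scale Ogn and Dcn were highest, at 12.2 ± 12.1 and 9.74 ± 6.85 in trained against 14.3 ± 2.66 and 12.4 ± 3.54 in untrained cord (SD, n = 3 each). Islr followed at 8.28 ± 5.75 in trained against 7.36 ± 2.11 in untrained cord. Slc6a13, Lum and Dpt lay between 2.31 and 3.39 in trained and between 2.69 and 3.93 in untrained cord. Slc22a6 was lowest, at 0.469 ± 0.358 in trained against 0.461 ± 0.200 in untrained cord. In trained cord the SD of neighbours in this order overlapped throughout. In untrained cord Ogn and Dcn overlapped, as did Dcn and Islr, and Lum, Slc6a13 and Dpt. Islr at 7.36 ± 2.11 and Lum at 3.93 ± 1.16 did not, nor did Dpt at 2.69 ± 0.906 and Slc47a1 at 1.19 ± 0.421. Scara5 at 0.624 ± 0.0588 overlapped neither Slc47a1 above it nor Comp below it. All genes come from the same libraries, so overlap of SDs does not test the order. The order did not hold in every library. In trained replicate 1 Ogn was at 1.47 CPM and Islr at 5.81 CPM, on gene lengths of 2566 and 2686 bases. Comp, at 0.533 ± 0.0060 in untrained cord, was next to lowest there, with an SD narrower than its counting error. At 2.28 ± 1.76 in trained cord it was in 7th place.

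The members lie on 9 chromosomes, and the count table gives coordinates that equal those of GENCODE M21 (GRCm38) for 9 of 10, all but Slc22a6. Dcn (ENSMUSG00000019929, chromosome 10, 97479609 to 97518143) and Lum (ENSMUSG00000036446, chromosome 10, 97565128 to 97572703) are neighbours, 46985 bases apart. Beyond them in the same cluster of leucine-rich proteoglycan genes, Kera was at 0 counts in every library and Epyc at 0.387 CPM at most. Ogn (ENSMUSG00000021390, chromosome 13, 49608046 to 49624501) belongs to a second cluster of such genes and lies inside Cenpp, a gene of the other strand with 108 counts in all. Its neighbour Omd had 18.2% of the untrained mean in trained replicate 1, Aspn 66.6% and Ecm2 78.9%, against 4.0% for Ogn itself, though Omd was at 0.310 to 2.73 CPM only.

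The carriers also sit beside relatives. Slc22a6 (ENSMUSG00000024650, chromosome 19, 8617996 to 8628299) lies 6162 bases from Slc22a8, which encodes another organic anion transporter. Slc22a8 was at 19.5, 19.5 and 25.6 CPM in the trained libraries, against 26.9, 19.2 and 18.7 CPM in the untrained ones, and trained replicate 1 had 90.5% of the untrained mean of Slc22a8 against 14.6% of that of Slc22a6. Slc6a13 (ENSMUSG00000030108, chromosome 6, 121300227 to 121337733) lies 5343 bases from Slc6a12, a betaine and GABA carrier, which had 49.7%. Slc47a1 (ENSMUSG00000010122, chromosome 11, 61343401 to 61378345) lies 541 bases from Slc47a2, which was too low to test. Comp (ENSMUSG00000031849, chromosome 8, 70373558 to 70382066) lies 289 bases from Crtc1, which had 104% and lay between 85.6 and 94.2 CPM in all 6 libraries. Islr (ENSMUSG00000037206, chromosome 9, 58156268 to 58204306) overlaps Islr2, which held 338 counts in all and 102% of the untrained mean in trained replicate 1. Reads of overlapping genes cannot be told apart in full where strand was not used. Dpt (ENSMUSG00000026574) spans 164796644 to 164824266 of chromosome 1 and Scara5 (ENSMUSG00000022032) 65666403 to 65764826 of chromosome 14.

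**Figure D5:**
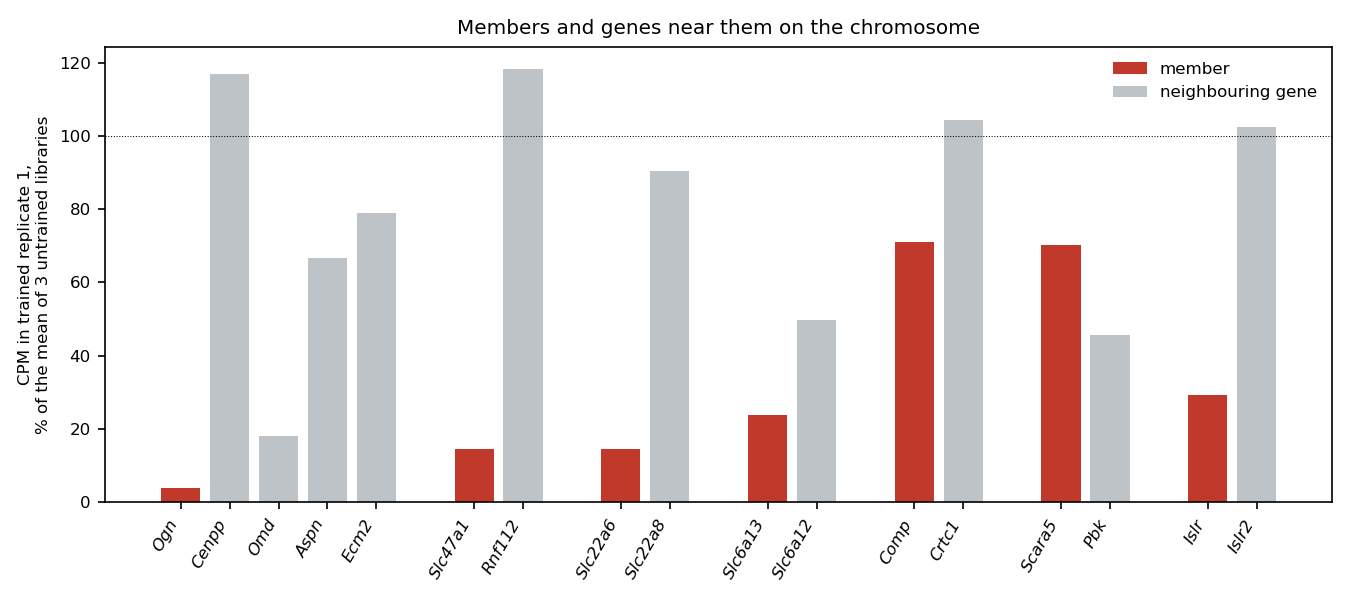
CPM in trained replicate 1 as a percentage of the mean of the 3 untrained libraries, for 7 of the 10 genes (red) and, beside each, its nearest tested protein-coding gene and any tested leucine-rich proteoglycan gene within 150000 bases (grey). Ogn, Slc47a1, Slc22a6, Slc6a13 and Islr lie well under their nearest tested gene. For Slc47a1 that gene is Rnf112, 70097 bases away, since the closer Slc47a2 was too low to test. Scara5 at 70.3% lies above Pbk at 45.7%, a gene of dividing cells at 1.05 to 2.88 CPM.

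Among 5 genes chosen for the profile closest to the mean of the 10 over the 6 libraries (root-mean-square difference in centred log2 CPM, genes of at least 1 CPM), Mgp, matrix Gla protein, an inhibitor of calcification, was nearest at 0.14. It was at 8.94, 54.8 and 58.7 CPM in the trained libraries against 47.7, 25.7 and 27.1 CPM in the untrained ones. The others were Htr2b (0.15), a serotonin receptor gene, Tspan11 (0.15), Pcolce (0.16), an enhancer of procollagen processing, and Itih2 (0.17). The 10 genes themselves lay at 0.20 (Islr) to 0.98 (Ogn) from their own mean, with Comp at 0.90.

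With 6 libraries edgeR's test over all genes called 0 genes of each related list. Of 20 other leptomeningeal markers 0 passed it in either direction, with a median log2 fold change of -0.01. At an unadjusted p below 0.05 in that test there was 1, S1pr3 at -0.47 ± 0.18 (SE), the share over all genes being 10%. Without trained replicate 1 the median of this list was 0.39 and again 0 passed. By mean CPM its leading genes, with log2 fold changes ± SE, were Ptgds, the prostaglandin D synthase gene, at 0.27 ± 0.25, the fibril proteoglycan Fmod at -0.11 ± 0.46, Bgn (biglycan) at 0.17 ± 0.51 and Igfbp2 at 0.33 ± 0.54, none past the test. Of these Ptgds is also made by oligodendrocytes. Wnt6, a Wnt ligand gene of the same list, was at 0.503, 8.71 and 15.1 CPM in the trained libraries against 7.70, 6.01 and 4.79 CPM in the untrained ones.

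Of 18 general fibroblast genes 0 passed, with a median of 0.18 (0.47 without trained replicate 1) and 1 at an unadjusted p below 0.05. The collagens Col1a1 and Col1a2 were at 0.34 ± 0.80 and 0.25 ± 0.63, and Gsn and Cygb, which glial cells also express, at 0.22 ± 0.07 and 0.05 ± 0.08. Mfap4, a microfibril gene 107086 bases from Slc47a1, was at 1.59, 11.5 and 9.31 CPM in the trained libraries against 5.68, 3.30 and 3.51 CPM in the untrained ones. Trained replicate 1 had 38.1% of its untrained mean. The counts past the test were also 0 of 11 other leucine-rich proteoglycans, 0 of 10 related carriers, 0 of 4 other thrombospondins, 0 of 3 other class A scavenger receptors, 0 of 10 fibrotic scar genes, 0 of 11 pericyte and smooth muscle genes, 0 of 8 endothelial genes and 0 of 7 Schwann cell genes. At an unadjusted p below 0.05 they held 1, 1, 0, 1, 0, 1, 4 and 0 genes in that order. DESeq2 called 0 in each list but the endothelial one, where it called 1, and limma-voom called 0 in each. In the remaining 10 lists, of choroid plexus, ganglion, muscle, cartilage, blood, neurons, oligodendrocytes, astrocytes, microglia and ependyma, edgeR called 0 as well with all 6 libraries.

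Among the genes of highest CPM in these lists, the log2 fold changes were -0.15 ± 0.10 for Slc6a11, a GABA carrier of astrocytes, -0.31 ± 0.22 for Thbs2 and 0.37 ± 0.83 for Thbs1, and -0.40 ± 0.33 for Colec12 and 0.14 ± 0.64 for Scara3. They were -0.01 ± 0.09 for Sparc and -0.20 ± 0.42 for Fn1, the fibronectin gene, of the scar list. In the mural and endothelial lists they were -0.18 ± 0.12 for Rgs5, 0.01 ± 0.44 for Vtn, -0.42 ± 0.09 for Slc2a1, the glucose transporter of the blood-brain barrier, and -0.36 ± 0.10 for Flt1, a VEGF receptor. None of them passed edgeR's test. In trained replicate 1 Thbs1 had 29.6% of the untrained mean and Fn1 48.4%, against 96.3% for Slc6a11 and 91.4% for Sparc, so the related genes differed among themselves there.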

How the data were processed

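Spinal cord RNA from 6 libraries was sequenced as paired-end reads, per the labels' protocols. The authors deposited raw read counts per Ensembl gene with gene symbols, coordinates and lengths. Bowtie 0.12.2, mm8 and mm9 stand without a role in the submitters' processing notes. The sources used here do not say how reads were counted, on which annotation or whether by strand.

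The quasi-likelihood test of edgeR 4.0.16 (R 4.3.3), with TMM factors, a filterByExpr filter, a robust fit and group as the only term, ran over 16909 genes, with Benjamini-Hochberg adjustment and a threshold of 0.05. Standard errors are the log2 fold change divided by the square root of the F statistic. Centred profiles used log2 CPM with a prior count of 0.5. Alternatives were other scalings, DESeq2 1.42.0, limma-voom (limma 3.58.1), other filters, a replicate block and leaving out each library. Simulated counts with known changes served to test this step.

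The members and lists were chosen with earlier results of these data known. Named were the members, list genes past the test or leading in CPM, and the nearest profiles; Prx, Wnt6, Mfap4, H19, Chad, genes near a member and others outside that rule were named after their values were seen. Relative scales were added after seeing the data. Some genes of the lists are not reported here.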

Additional observations from a re-analysis of the deposited data

How the results depend on the processing

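The count of all genes past the test was 10 with 6 libraries. It was 90 with DESeq2, 276 with no filter on low counts, 5 with the replicate block and 4 to 221 when each library was left out in turn (21 without trained replicate 1, 4 without trained replicate 2, 221 without trained replicate 3). Leptomeningeal members among them numbered 0, and 0 to 3 on leaving out each library, the 3 without trained replicate 1, from which nothing is read since these levels chose the genes. The other leptomeningeal markers and the other leucine-rich proteoglycans had 1 call each, and the endothelial genes 3, with no filter on low counts, and the endothelial genes 1 with DESeq2. On leaving out each library the other leptomeningeal markers and the fibrotic scar genes had 0 to 1. The cause was not tested. The median log2 fold change of the 10 genes, -0.031, was 0.0064 with DESeq2, -0.48 with limma-voom, -0.23 with the replicate block and -0.47 to 0.50 on leaving out each library, 0.33 without untrained replicate 1. Divided by collagen it was -0.30 and by the other leptomeningeal markers -0.08. Deviations of same-numbered libraries from their group means had correlations of -0.15, -0.10 and -0.10 over genes. Those of differently numbered libraries ran from -0.012 to 0.11. With 3 libraries in each group such values cannot decide whether the numbers pair the libraries. At 7 to 69 counts, Slc22a6, Slc47a1, Comp, Ogn, Lum, Dpt, Slc6a13 and Scara5 in trained replicate 1 have wide counting error. The exact Poisson intervals there end at 2.02 CPM for Ogn, 0.958 for Slc47a1, 2.73 for Lum and 2.99 for Slc6a13. For these genes they lie below the intervals of every other library. Those of Slc22a6, Comp, Dpt and Scara5 overlap the interval of at least 1 untrained library.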

Other observations

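Genes that are not among the 10 had a profile like that of Comp, low in trained replicate 1 and in the untrained libraries and high in trained replicates 2 and 3. The nearest of the genes with at least 1 CPM was H19, an imprinted noncoding RNA gene, at a root-mean-square difference of 0.40 in centred log2 CPM, and next came Chad, a leucine-rich cartilage protein gene, at 0.47. H19 was at 2.21, 14.0 and 12.1 CPM in the trained libraries against 2.46, 1.68 and 1.53 CPM in the untrained ones, and Chad at 0.697, 2.47 and 2.48 CPM in the trained libraries against 0.710, 0.541 and 0.639 CPM in the untrained ones. With all 6 libraries neither passed edgeR's quasi-likelihood test (adjusted p = 0.480 for H19 and 0.330 for Chad). Without trained replicate 1 H19 had a log2 fold change of 2.77 ± 0.23 with an edgeR adjusted p of 0.000102, and Chad one of 1.96 ± 0.37 with an edgeR adjusted p of 0.0662. Alb, the albumin gene, was not among the 5 genes nearest to Comp but had a log2 fold change of 4.19 in the same fit (edgeR adjusted p = 0.00190). Its CPM by library is not reported here. These genes were picked after their values had been seen.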
